A study of Mus musculus with 2 samples.

Results

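Of the 4444 cells kept in the GFP-negative library, 561 (12.62%, exact 95% interval 11.66 to 13.64) were retinal progenitors with G1/S transcripts and no UMI of 3 mitotic genes. A UMI (unique molecular identifier) counts 1 captured mRNA molecule. The cells were selected on raw UMIs of 13 genes: at least 8 of Sfrp2 and Fgf15 together, at least 4 of Mcm3, Mcm5, Mcm6, Ccne2 and Ung, none of Ube2c, Cdc20 and Ccnb1, and at most 1 of Olig2, Neurog2 and Atoh7. Levels of these 13 genes are therefore a description, and since all other genes were read in the same cells and the same contrasts, no test was made on them either. The 561 cells are called G1/S progenitors here.

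The study sorted retinal cells of E14.5 mouse embryos into a GFP-positive and a GFP-negative suspension, and made 1 droplet library from each. The embryos carried the LHX4::GFP bacterial artificial chromosome transgene, kept heterozygous, in which GFP marks developing cone photoreceptors, and retinas of 2 litters were pooled before the sort. Both gates share genotype, age and handling, and the GFP-negative gate is the retina with the GFP-bearing cells removed. The deposited matrices held 8173 cells in all, 4445 of them GFP-negative with 46778924 UMIs, and 20 cell barcodes occurred in both libraries, 3 of them among the 561 cells. Without these barcodes 558 cells remained. With 1 library per gate there was no replicate, and p-values were not computed. Intervals of ratios cover counting error of UMIs added up over a group, and leave out the spread between cells. Intervals of shares cover the counting of cells of a single suspension.

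Progenitors of the embryonic retina divide at the outer surface of the neuroepithelium, and either re-enter the cycle or leave it as neurons. Before S phase the proteins ORC, CDC6 and CDT1 load the MCM helicase on DNA, a step called licensing, and E2F factors switch on these genes together with those for DNA synthesis and nucleotide supply. Histone mRNAs rise during S phase, and the genes for chromosome segregation rise in G2 and mitosis, when they are read through promoter elements known as CHR and CCAAT boxes. SFRP2, a secreted modulator of Wnt signalling, and FGF15 are made by undifferentiated retinal progenitors, whereas OLIG2, NEUROG2 and ATOH7 mark cells close to neuronal exit.

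The promoters of the genes that set both arms of the rule are shown because they carry these elements in different combinations. The 160 bases before the start site are given 5′ to 3′ (RefSeq, GRCm38.p6), with E2F words in capitals for Mcm5 (chr8:75109349-75109508, plus strand) and Mcm6 (chr1:128359706-128359865, minus strand), and with CHR and CCAAT words in capitals for Ube2c (chr2:164769769-164769928, plus strand) and Cdc20 (chr4:118437344-118437503, minus strand).
Mcm5: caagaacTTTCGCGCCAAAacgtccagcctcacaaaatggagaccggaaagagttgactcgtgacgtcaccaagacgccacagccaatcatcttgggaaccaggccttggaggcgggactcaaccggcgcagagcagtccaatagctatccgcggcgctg
Mcm6: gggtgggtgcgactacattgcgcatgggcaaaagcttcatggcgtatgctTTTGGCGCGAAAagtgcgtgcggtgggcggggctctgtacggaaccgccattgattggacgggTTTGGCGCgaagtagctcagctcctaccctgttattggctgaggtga
Ube2c: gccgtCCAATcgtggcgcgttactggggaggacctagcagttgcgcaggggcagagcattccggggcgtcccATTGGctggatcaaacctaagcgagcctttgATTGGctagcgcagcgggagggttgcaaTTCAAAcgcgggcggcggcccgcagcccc
Cdc20: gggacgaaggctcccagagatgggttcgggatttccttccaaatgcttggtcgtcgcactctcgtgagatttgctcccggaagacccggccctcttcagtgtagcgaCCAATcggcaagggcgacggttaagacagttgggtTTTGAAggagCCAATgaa

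The words searched, on both strands, were TTTCCCGC, TTTGGCGC, TTTGCCGC and TTTCGCGC for E2F, TTTGAA for CHR, and CCAAT. In Mcm5 and Mcm6 TTTCGCGC and TTTGGCGC overlap on opposite strands, so that 1 run of capitals holds 2 words. In windows of 300 bases, from 250 before to 50 after the start, an E2F word stood in 3 of the 4 G1/S genes of the rule found in the table (Mcm3, Mcm5 and Mcm6, not Ung), in none of the 3 mitotic genes, and in 2.6% of all 27025 genes. A CHR word stood in 2 of the 3 mitotic genes (Ube2c and Cdc20, not Ccnb1) and in none of the 4 G1/S genes, against 20.2% of all genes. CCAAT was common everywhere, in 41.1% of all genes, in 3 of the 4 G1/S genes and in all 3 mitotic genes. Over the wider lists described below, E2F words stood in 6 of 15 licensing genes and 2 of 43 genes of S/G2 and mitosis, and CHR words in 5 of 15 and 31 of 43. CHR and CCAAT stood together in 62.8% of the S/G2 and mitosis promoters and in 8.97% of all. Promoter sequence is independent of the cell rule, but a word match is a description of these letters and not of a bound factor.

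The G1/S progenitors had a median of 9432 UMIs per cell (range 3397 to 25755) and 2919 genes, and 42 of them (7.49%) held more than 3500 genes. Mitochondrial transcripts made up a median of 2.37% of their UMIs, close to the 2.33% of the other cells. Scrublet marked 4 of the 561 as doublets (0.713%). Mitotic progenitors were deeper, at a median of 12379 UMIs, and neurogenic cells were near the G1/S progenitors at 9057. Shares of cells with a UMI are therefore also given with every cell thinned to 6300 UMIs.

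Among the genes that chose the cells, Sfrp2 and Fgf15 each had a UMI in 559 of 561 cells, with medians of 15 and 17 UMIs per cell. In neurons they were found in 36.6% and 36.9% of cells, and the part of free RNA in this was not tested. Of the replication genes, Mcm6 was found in 90.02% of G1/S progenitors, Ung, the uracil-DNA glycosylase, in 82.3%, Mcm5 in 80.4%, Mcm3 in 78.8% and Ccne2, cyclin E2, in 33.5%. All 5 genes were found together in 90 cells, 4 of them in 234, 3 in 188 and 2 in 49, so no cell passed on a single gene. Olig2 was at 0, and Neurog2 or Atoh7 supplied the single permitted UMI in 97 cells.

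All 2000 progenitors of the library, taken as cells that met the Sfrp2, Fgf15 and neurogenic limits, were laid out by their G1/S and mitotic sums. The 561 G1/S progenitors were the most numerous of the 6 classes. A further 426 had the same G1/S sum with 1 to 5 mitotic UMIs, and 96 combined it with 6 or more. Among progenitors with a G1/S sum under 4, 218 had no mitotic UMI, 264 had 1 to 5 and 435 had 6 or more. High values of both sums in the same cell were rare.

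**Figure D1:**
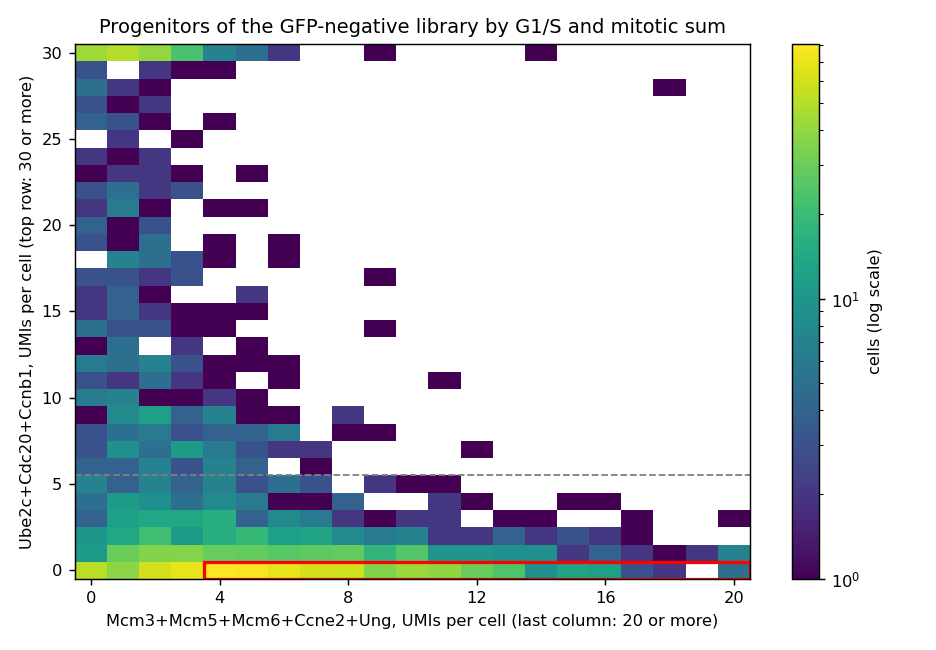
Number of progenitors (colour, log scale) at each G1/S sum (x axis, UMIs per cell) and mitotic sum (y axis, UMIs per cell). The red box holds the 561 G1/S progenitors and the dashed line marks the lower limit of 6 mitotic UMIs for mitotic progenitors. Cells lie along both axes, and 96 of 2000 have a G1/S sum of 4 or more together with 6 or more mitotic UMIs.

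Cells just inside and outside each limit differed by little at the G1/S limit and by more at the mitotic and neurogenic limits. The 81 cells with a G1/S sum of 4 had 1566 CPM (UMIs per 1000000) of licensing transcripts, and the 69 cells just outside, with a sum of 3, had 1341. At the mitotic limit, the 237 cells with 1 UMI had 2830 CPM of S/G2 and mitosis transcripts against 1883 in the members. At the neurogenic limit, the 97 members with 1 UMI had 1115 CPM of the neurogenic transition list, and the 24 cells with 2 UMIs had 2156. At the Sfrp2 and Fgf15 limit the sums are sparse: the lowest members, 4 cells, held 9 UMIs and the highest cells left out, 5 in number, held 7, with progenitor transcription factors at 3189 and 2897 CPM.

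The label of these cells was checked with genes outside the rule. Progenitor transcription factors summed to 4989 CPM, close to the 5407 of mitotic progenitors and above the 2779 of neurogenic cells and 2168 of neurons. Origin licensing and firing genes, with the rule genes left out of the list, summed to 1898 CPM against 1029 in mitotic progenitors. The neuron list summed to 987 CPM against 22508 in neurons. Transcripts of S/G2 and mitosis were low but present, at 1883 CPM against 641 in neurons, and none of the 52 genes was at 0, so that the absence of mitotic transcripts in the label holds for the 3 genes of the rule. Lists of other cell types varied. Endothelial genes were at 56.8 CPM, near the 51.0 of the other cells. Ciliary margin genes were at 36.2, amacrine and horizontal cell genes at 12.6 and mesenchymal genes at 10.6. The lists that follow left fewer UMIs. Erythroid genes were at 3.11 CPM with 3 of 7 at 0 and Hbb-bs, a beta globin, the most abundant, microglial genes at 0.913 CPM with 5 of 6 at 0, lens genes at 0.548 CPM with 6 of 9 at 0, pigment epithelium at 4.02 CPM with 7 of 10 at 0 and cone genes at 6.94 CPM with Gngt2 and Lhx4 at 0.

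**Figure D2:**
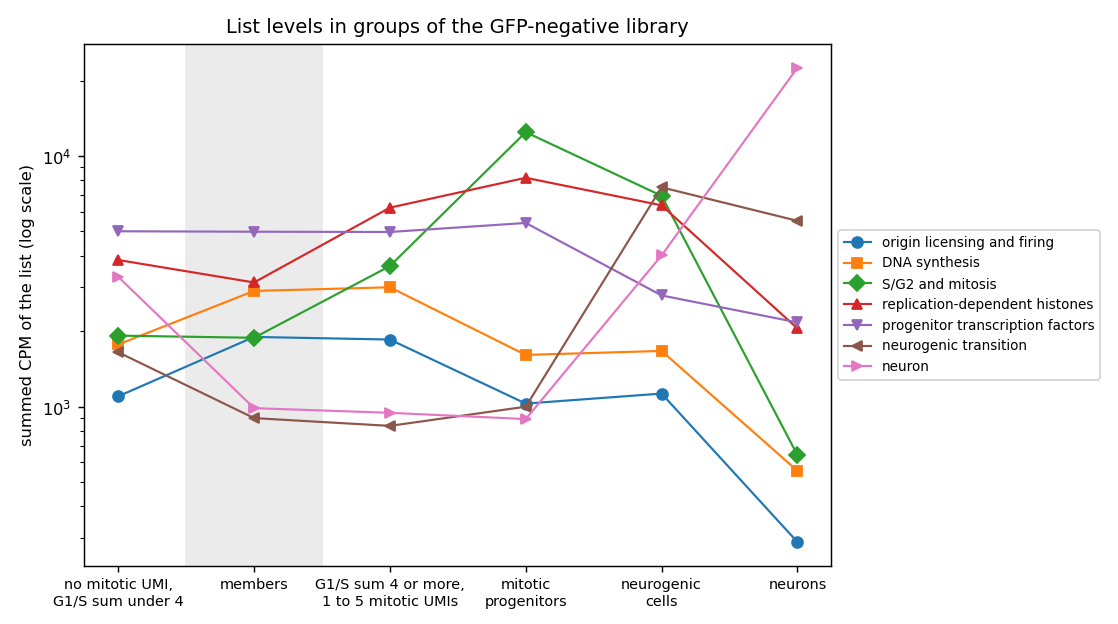
Summed CPM (y axis, log scale) of 7 gene lists in 6 groups of cells of the GFP-negative library, with the G1/S progenitors shaded. Licensing genes are at 1898 CPM in the G1/S progenitors and 1029 in mitotic progenitors, S/G2 and mitosis genes at 1883 and 12452, and progenitor transcription factors at 4989 and 5407. The lines join groups and imply no time course.

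The next comparison was with the other 3883 cells of the library. Of 8449 genes with at least 10 CPM in either group, 246 (2.91%) were at least 2-fold higher in the G1/S progenitors and 725 (8.58%) at least 2-fold lower, with a median log2 ratio over all genes of -0.04. With at most 3500 genes per cell, 155 were higher, 148 of them among the 246, and 524 lower. In the licensing list 10 of 20 were higher and none lower (median log2 ratio 1.04), in DNA synthesis 11 of 27 and none, in nucleotide supply 6 of 16 and none, and in S-phase repair and chromatin 7 of 14 and none. After the rule genes, and among genes with at least 50 CPM in either group, the highest ratios were of Chaf1b, a subunit of the histone chaperone CAF-1 (86.6 against 26.8 CPM, 3.23-fold, 95% interval 2.90 to 3.60), Gins2 of the replicative helicase (3.16-fold, 2.95 to 3.39), Mcm4 (2.95-fold, 2.66 to 3.27), Cdca7 (2.86-fold, 2.68 to 3.06) and Cdt1 (2.85-fold, 2.58 to 3.15). All 16 neuron genes were lower, as were 19 of 21 neurogenic transition genes and 42 of 52 genes of S/G2 and mitosis. The rule limits mitotic and neurogenic UMIs in the G1/S progenitors only, and its part in these counts was not tested. Outside the rule, and at the same limit of 50 CPM, low ratios were of the globins Hbb-bt, Hba-a1 and Hbb-bs, whose UMIs lay almost wholly in other cells, and of Gal, galanin (10.6 against 330 CPM), Igfbpl1 (18.6 against 415) and Isl1, a ganglion cell transcription factor (12.4 against 276).

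A further comparison was with the 531 mitotic progenitors, which met the same Sfrp2, Fgf15 and neurogenic limits but held at least 6 UMIs of Ube2c, Cdc20 and Ccnb1. Of 8077 genes, 169 (2.09%) were at least 2-fold higher in the G1/S progenitors and 283 (3.5%) at least 2-fold lower, with a median log2 ratio of -0.01. Because depth differed between the groups, thinned values are given beside shares.

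Licensing genes were higher in the G1/S progenitors in 8 of 20 cases and lower in 1, or 2 at 6300 UMIs per cell (median log2 ratio 0.86). Cdc6, which loads the helicase together with CDT1, was at 40.0 CPM against 4.28 (9.34-fold, 6.32 to 14.3). Cdt1 itself was at 98.3 against 22.0 CPM (4.47-fold, 3.72 to 5.39). Helicase subunits outside the rule were also higher, with Mcm4 at 93.4 against 24.1 CPM (3.88-fold, 3.25 to 4.66), Mcm2 at 148 against 39.9 (3.71-fold, 3.23 to 4.28) and Mcm7 at 225 against 100 (2.24-fold, 2.04 to 2.47). Gmnn, geminin, the inhibitor of CDT1, differed less, at 231 against 165 CPM (1.40-fold, 1.29 to 1.52). The exception was Dbf4, the activating subunit of the CDC7 kinase that fires origins, at 22.8 against 94.8 CPM, or 4.15-fold lower (3.42 to 5.07). Its catalytic partner Cdc7 was at 28.5 against 20.8 CPM.

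In the list of DNA synthesis 10 of 27 genes were higher and none was lower by 2-fold (median log2 ratio 0.81). The highest were Chaf1b (5.19-fold, 4.22 to 6.43), Dscc1, which helps load the sliding clamp (42.0 against 8.27 CPM, 5.08-fold, 3.78 to 6.93), and Pole2 (3.74-fold, 2.65 to 5.36). Pcna, the clamp itself, was at 191 against 57.9 CPM (3.29-fold, 2.93 to 3.71), and Lig1, DNA ligase I, at 341 against 105 (3.25-fold, 2.98 to 3.55). Pcna-ps2, a pseudogene of Pcna that may share its reads and is therefore uncertain, showed 3.99-fold (3.15 to 5.10). The histone chaperone Asf1b went the other way, at 43.8 against 76.7 CPM (1.75-fold lower, 1.497 to 2.05). Of 16 genes of nucleotide supply 2 were higher by 2-fold and none lower (median log2 ratio 0.79). Rrm2, a ribonucleotide reductase subunit, was at 2.46-fold (2.23 to 2.72), and Tyms, thymidylate synthase, was at 1.39-fold (1.26 to 1.53). Of 14 genes of S-phase repair and chromatin, 4 were higher, among them Hells, a chromatin remodeller (3.02-fold, 2.67 to 3.42), and Uhrf1, which recruits the maintenance DNA methyltransferase (2.05-fold, 1.84 to 2.29). High levels of these lists were not particular to the 561 cells. In the 426 progenitors with the same G1/S sum and 1 to 5 mitotic UMIs, DNA synthesis was at 2995 CPM against 2896. Nucleotide supply was at 2475 against 2283 CPM there, and S-phase repair and chromatin at 1004 against 969.

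Among 19 genes of G1/S control, 5 were higher and none lower. E2f1 was at 135 against 35.9 CPM (3.76-fold, 3.25 to 4.37), E2f2 at 13.9 against 3.40 (4.09-fold, 2.54 to 6.83) and Ccne1, cyclin E1, at 20.6 against 4.87 (4.24-fold, 2.85 to 6.45). Mybl2, a regulator of later cell cycle genes, was at 34.9 against 12.1 CPM (2.88-fold, 2.21 to 3.78), and Ccnd2, cyclin D2, at 40.9 against 20.1 (2.04-fold, 1.64 to 2.54). Ccnd1, cyclin D1, hardly differed, at 2140 against 2361 CPM. Tcf19, outside the lists, was at 86.0 against 21.3 CPM (4.05-fold, 3.35 to 4.91). It was among the 10 highest of the genes with at least 50 CPM in either group.

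All 52 genes of S/G2 and mitosis were at least 2-fold lower than in mitotic progenitors (median log2 ratio -2.95), a comparison group chosen on 3 genes of the same programme, but the size of the difference varied widely. The kinases Aurka (2.74 against 132 CPM, with 4.21 in neurons) and Plk1 (3.65 against 150, with 1.66 in neurons) and the spindle genes Hmmr (2.92 against 112) and Kif23 (3.11 against 88.5) were all low, as were Tuba1c, Sapcd2 and Arhgef39, and no fold or order is read from levels so low. Top2a, the topoisomerase that untangles replicated DNA, was at 103 against 577 CPM (5.59-fold lower, 5.12 to 6.12), Mki67 at 28.3 against 185 (6.54-fold lower, 5.53 to 7.78) and Cdk1 at 64.8 against 406 (6.26-fold lower, 5.60 to 7.01). The smallest differences were of Cks1b, a subunit of cyclin-dependent kinases (2.12-fold lower, 2.00 to 2.24), Smc4 of condensin (2.82-fold lower, 2.60 to 3.06) and Ncapd2, of the same complex (34.5 against 102.2 CPM). At 6300 UMIs per cell, Plk1 was found in 2.44% of G1/S progenitors (1.30 to 4.13), 53.5% of mitotic progenitors and 1.08% of neurons (0.466 to 2.11), with overlapping intervals for the first and last. Aurka was found in 1.31% of G1/S progenitors, no more than the 2.69% of neurons, and is read as background. Top2a was found in 35.1% (31.0 to 39.3), well above the 6.19% of neurons.

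**Figure D3:**
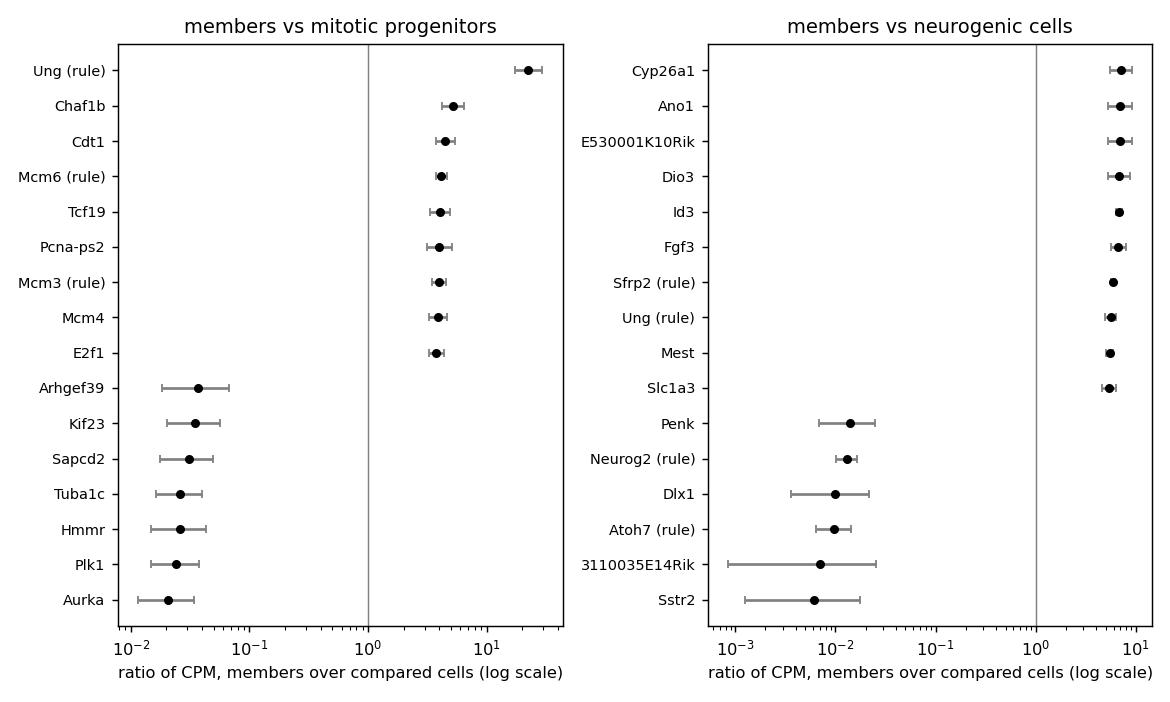
Ratio of CPM in G1/S progenitors over mitotic progenitors (left) and neurogenic cells (right), log scale, for genes among the 10 highest and 10 lowest with at least 50 CPM in either group. Points are ratios, bars are 95% exact conditional intervals for counting error, genes marked (rule) chose the cells, and genes with no UMI in the G1/S progenitors are left out. Cdt1 and Chaf1b lie at 4.47 and 5.19 on the left. Aurka and Plk1 lie far below 1, but at 2.74 and 3.65 CPM in the G1/S progenitors they were near the levels of neurons, so the place of such points is not read.

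None of 20 progenitor transcription factors passed 2-fold between the G1/S and the mitotic progenitors (median log2 ratio -0.18). Since 2.09% of all genes were higher and 3.5% lower by 2-fold, counts of 0 in lists of this size lie near the background and are not read as a result about them. Hes1, the Notch effector, was at 604 against 578 CPM (1.04-fold, 0.997 to 1.09), Rax, the eye field homeobox gene, at 436 against 426 (1.02-fold, 0.970 to 1.08), and Sox2 at 347 against 396 (0.876-fold, 0.826 to 0.930). Nr2f1, an orphan receptor, was the lowest of the list at 137 against 186 CPM (0.736-fold, 0.671 to 0.806). The Notch list had 1 of 11 genes past 2-fold, Mfng, a modifier of Notch receptors, at 16.3 against 6.65 CPM (2.45-fold, 1.69 to 3.58). A single gene in a list of this size is not read as a result about the list. None of 7 Hedgehog genes passed 2-fold, though the median log2 ratio was -0.59 and Gli1, a target of the pathway, was at 32.9 against 47.1 CPM (0.698-fold, 0.578 to 0.841). The counts were also 0 for 10 neurogenic transition genes, 13 neuron genes, 11 FGF genes and 12 metabolic and matrix genes, again near the background.

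The 218 progenitors with neither sum, under 4 G1/S UMIs and no mitotic UMI, were the other group without the 3 mitotic genes. Their licensing list was at 1100 CPM against 1898 in the G1/S progenitors, while S/G2 and mitosis was nearly level at 1921 against 1883, as were progenitor transcription factors at 5010 against 4989. Their neuron list was higher, at 3298 against 987 CPM, and the neurogenic transition list at 1649 against 900.5. Ptf1a, a factor of horizontal and amacrine precursors, was at 57.7 CPM there and 3.84 in the G1/S progenitors, and Cdkn1c, the cyclin-dependent kinase inhibitor p57, at 313 and 133. These cells were also shallower, at a median of 7888 UMIs, which lowers every sum of the rule, and the part of depth in the difference was not tested.

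The comparison with 827 neurogenic cells, which held at least 4 UMIs of Olig2, Neurog2 and Atoh7, set the G1/S progenitors against cells near neuronal exit. Of 8328 genes, 514 (6.17%) were at least 2-fold higher in the G1/S progenitors and 561 (6.74%) at least 2-fold lower (median log2 ratio -0.04). Of the 20 progenitor transcription factors, 8 were higher and 1, Meis2, lower, at 12.4 against 25.1 CPM. That call lies at the limit and was lost at 6300 UMIs per cell. Id3, an inhibitor of bHLH factors, was at 900 against 134 CPM (6.73-fold, 6.30 to 7.19), Sox9 at 107 against 31.3 (3.43-fold, 2.95 to 3.98), Hmga2, a chromatin protein of early progenitors, at 71.8 against 21.0 (3.42-fold, 2.85 to 4.11) and Nr2e1 at 103 against 30.6 (3.37-fold, 2.90 to 3.93).

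Of 14 genes of the Notch pathway, 2 were higher and 8 lower. The effector Hes1 was higher in the G1/S progenitors, at 604 against 157 CPM (3.84-fold, 3.60 to 4.10), and so was the receptor Notch3 (16.1 against 3.81 CPM). The ligands were lower: Dll1 was at 4.75 against 73.5 CPM, Dll3 at 8.22 against 124 and Dll4 at 1.46 against 74.98. Dll1 and Dll4 had a UMI in 4.28% and 1.25% of G1/S progenitors, no more than the 9.57% and 3.81% of neurons, so no fold is read from these low levels. Notch1, Rbpj, which mediates Notch transcription, and the effector Hes5 were also lower in CPM, by 2.43-fold (2.103 to 2.83), 3.31-fold (2.90 to 3.80) and 2.12-fold (2.00 to 2.25). The share of cells with a Hes5 UMI was not lower, at 69.9% against 63.2%, and 61.2% against 57.7% at 6300 UMIs per cell, so no order is read for Hes5.

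Genes of the FGF, Hedgehog and Wnt pathways passed 2-fold in part. Fgf3 was at 133 against 19.9 CPM (6.66-fold, 5.61 to 7.95) and Fgf9 at 162 against 59.1 (2.74-fold, 2.45 to 3.07), and the FGF target genes Etv1 (5.64-fold, 3.84 to 8.49), Etv4 (3.65-fold, 2.59 to 5.22) and Etv5 (2.81-fold, 2.30 to 3.45) went with them, in a list with 6 of 12 higher and none lower, or 1 lower under TMM scaling or at 6300 UMIs per cell. Among Hedgehog genes 3 of 7 were higher, including Gli1 (3.01-fold, 2.32 to 3.92) and Hhip, an inhibitor of the pathway (3.69-fold, 2.40 to 5.80), and among Wnt genes 3 of 9, including Sfrp1 (3.61-fold, 3.08 to 4.25). The list of metabolic and matrix genes had 9 of 12 higher and none lower, with Slc1a3, a glutamate transporter, at 140 against 26.1 CPM (5.36-fold, 4.60 to 6.27), Cp, ceruloplasmin, at 122 against 24.8 (4.92-fold, 4.20 to 5.79) and Col9a1, a collagen chain, at 187 against 38.5 (4.86-fold, 4.28 to 5.54). Among genes with at least 50 CPM in either group, the highest ratios were of Cyp26a1, which degrades retinoic acid (66.9 against 9.46 CPM, 7.06-fold, 5.51 to 9.15), the chloride channel Ano1 (6.88-fold, 5.21 to 9.21), the uncharacterised transcript E530001K10Rik (6.88-fold, 5.27 to 9.09) and Dio3, which inactivates thyroid hormone (66.9 against 9.83 CPM, 6.80-fold, 5.33 to 8.77). Mest, lower in that order, was at 571 against 104 CPM (5.49-fold, 5.09 to 5.93).

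Of the neurogenic transition list 20 of 21 genes were lower and none higher (median log2 ratio -3.55). The neurogenic cells had been chosen on Olig2, Neurog2 and Atoh7, and the part of this choice in the count was not tested. Gadd45a was at 48.2 against 1501 CPM (31.1-fold lower, 27.5 to 35.3), Neurod1, a neuronal bHLH factor, at 4.93 against 287 and Otx2, a photoreceptor and bipolar cell factor, at 5.30 against 298, again with no fold read. The exception was Foxn4, a factor of amacrine and horizontal cell genesis, at 49.5 against 88.9 CPM (1.79-fold lower, 1.56 to 2.07). Sstr2, a somatostatin receptor, 3110035E14Rik, Dlx1 and Penk, proenkephalin, were nearly undetected in the G1/S progenitors, with 3, 2, 6 and 11 UMIs against 737, 422, 905 and 1179, and no fold or order is read from such counts. Replication genes did not all differ. Licensing had 6 of 20 higher and 1 lower, and DNA synthesis 10 of 27 higher and none lower. Nucleotide supply had 4 of 16 higher, or 1 at 6300 UMIs per cell. S-phase repair and chromatin had 2 of 14 higher, or 1 under TMM scaling or at 6300 UMIs per cell. Rrm2 was level at 216 against 212 CPM (1.02-fold, 0.946 to 1.10), and so was E2f1 at 135 against 129 (1.05-fold, 0.953 to 1.15). Of the 52 genes of S/G2 and mitosis 47 were lower and none higher. The G1/S progenitors were chosen without UMIs of Ube2c, Cdc20 and Ccnb1, and the neurogenic cells had no such limit. The part of this choice in the count was not tested.

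**Figure D4:**
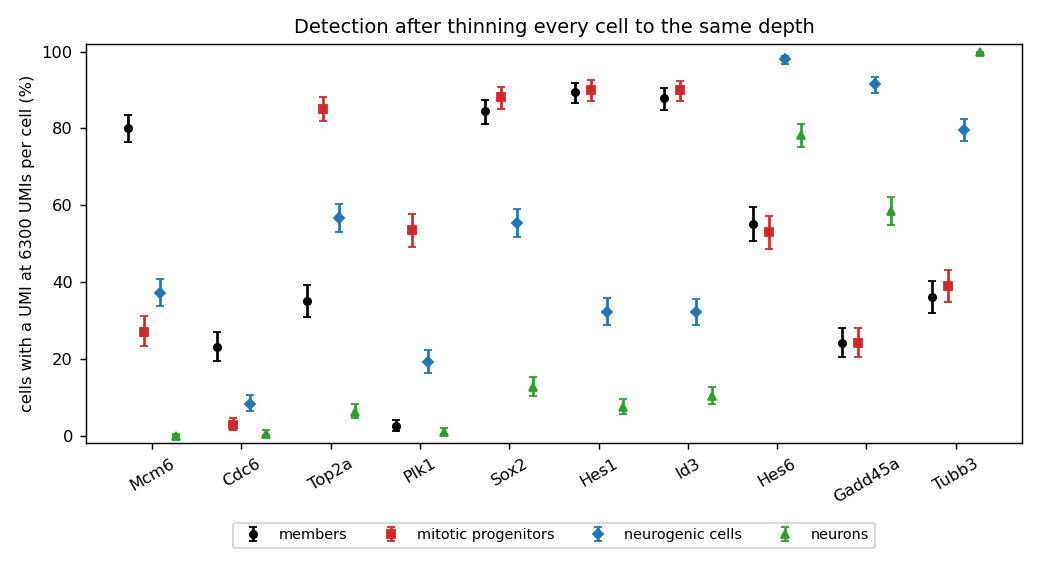
Share of cells with a UMI (y axis, percent) after thinning to 6300 UMIs per cell in G1/S progenitors (members), mitotic progenitors, neurogenic cells and neurons, with exact 95% intervals. Hes1 and Id3 are found in 89.5% and 88.0% of G1/S progenitors and in 32.3% and 32.1% of neurogenic cells, Cdc6 in 23.1% of G1/S and 2.85% of mitotic progenitors. Mcm6 is a rule gene, and neurons were chosen on Tubb3 and a G1/S sum of 0.

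Shares of cells with a UMI were compared after thinning. Shallower cells were left out, 28 of the G1/S progenitors, 4 of the mitotic progenitors, 83 of the neurogenic cells and 124 of the neurons. Cdc6 was found in 23.1% of G1/S progenitors (19.6 to 26.9), 2.85% of mitotic progenitors, 8.33% of neurogenic cells and 0.538% of neurons, and without thinning in 31.7%, 5.46%, 10.6% and 1.15%. The 426 progenitors with the same G1/S sum and 1 to 5 mitotic UMIs held it in 20.7% of cells (16.9 to 24.9), and in 29.3% without thinning, and their licensing list was at 1853 CPM against 1898, so high Cdc6 was not particular to the 561 cells. Hes1 was found in 89.5% (86.6 to 92.0) of G1/S progenitors and 90.1% (87.3 to 92.5) of mitotic progenitors, with 7.40% of neurons as the level of a cell type with little Hes1. Gadd45a was found in 24.2% and 24.1% of them and in 91.5% of neurogenic cells. Tubb3, the neuronal tubulin, was found in 36.0% (31.9 to 40.3) of G1/S progenitors and 38.9% (34.7 to 43.2) of mitotic progenitors, and in every neuron, which were chosen on it. Its level in the G1/S progenitors was 143 CPM against 5736 in neurons, and the part of free RNA in it was not tested.

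Replication-dependent histones, whose mRNAs accumulate in S phase, varied widely among the G1/S progenitors. The method primes on poly(A) tails, which most of these mRNAs lack, and near-identical copies can share reads, so only their sum is used. It ran from 0 to 194.8 UMIs per 10000, with a median of 13.4 and quartiles of 5.15 and 35.9. Medians were 84.4 in mitotic progenitors, 12.6 in the 218 progenitors with neither sum and 18.9 in neurons (quartiles 12.4 and 27.6). Since the median of neurons lay above that of the G1/S progenitors, sums at or below the level of neurons are not read as S phase. The middle of the licensing list was narrow by contrast, with quartiles of 14.4 and 23.4 around a median of 18.6. Ranked by the histone sum and cut into 3 equal parts of 187 cells, the G1/S progenitors had medians of 3.87, 13.4 and 59.2 histone UMIs per 10000. Only the median of the highest part exceeded the 18.9 of neurons, so the order of the lowest and middle part is not read as a cell cycle order. The cuts are points on a range, with 33 and 27 cells within 10% of each, and median depths were 8803, 9799 and 9826 UMIs.

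The list of S/G2 and mitosis was at 1309, 1601 and 2685 CPM in the lowest, middle and highest part (2.05-fold from lowest to highest), and the licensing list at 1813, 1823 and 2051. Within the former the difference varied by gene. Aurkb, aurora kinase B, was at 5.89, 18.5 and 58.5 CPM, with 10 UMIs in the lowest part, so no fold is read. Ccna2, cyclin A2, was at 10.6, 20.6 and 67.5 CPM (6.37-fold, 3.88 to 11.1) and Mki67 at 10.6, 16.9 and 55.8 (5.27-fold, 3.18 to 9.24). Top2a was at 43.0, 54.4 and 206.9 CPM (4.81-fold, 3.74 to 6.27), whereas Cks2 was at 2.23-fold (1.802 to 2.781) and Smc4 at 1.43-fold (1.196 to 1.72). Both E cyclins were higher too. Ccne1 was at 7.65, 19.0 and 34.0 CPM, with 13 UMIs in the lowest part and no fold read. Ccne2, a gene of the rule, was at 30.6, 40.1 and 76.6 CPM. Rrm2 (2.01-fold, 1.73 to 2.33), Tyms (1.97-fold, 1.67 to 2.33) and Pcna (1.49-fold, 1.27 to 1.75) were also higher. Cdc6 did not separate the parts beyond counting error (1.09-fold, 0.780 to 1.52), nor did Gins2 (1.11-fold, 0.957 to 1.28).

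The helicase subunits Mcm4 and Mcm2, outside the rule, were lower in the highest part. Mcm4 was at 106, 97.1 and 78.2 CPM (0.738-fold, 0.589 to 0.922) and Mcm2 at 168, 147 and 131 (0.780-fold, 0.655 to 0.928). The subunits Mcm3, Mcm5 and Mcm6 were summed with Ung and Ccne2 to choose the cells, so that less of them is needed where Ccne2 is higher, and their levels by part, 187, 138 and 142 CPM for Mcm3, 190, 175 and 166.5 for Mcm5, and 245, 245 and 238 for Mcm6, are given only as a description. Hes1 was likewise lower in the highest part, at 553 against 706 CPM in the lowest (0.783-fold, 0.720 to 0.851). The list of progenitor transcription factors was at 5057 and 5017 CPM in the lowest and highest part. Neuronal genes also differed: the neuron list was at 885, 1409 and 653 CPM in the lowest, middle and highest part (0.738-fold, 0.683 to 0.796) and the neurogenic transition list at 1017, 874.5 and 822 (0.808-fold, 0.754 to 0.866), and their part in the differences between parts was not tested. Mitotic genes of the rule were at 0 in every part by selection, and Ccnb2, cyclin B2, was at 18.2, 34.8 and 21.8 CPM with no clear difference between lowest and highest (1.195-fold, 0.731 to 1.97).

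**Figure D5:**
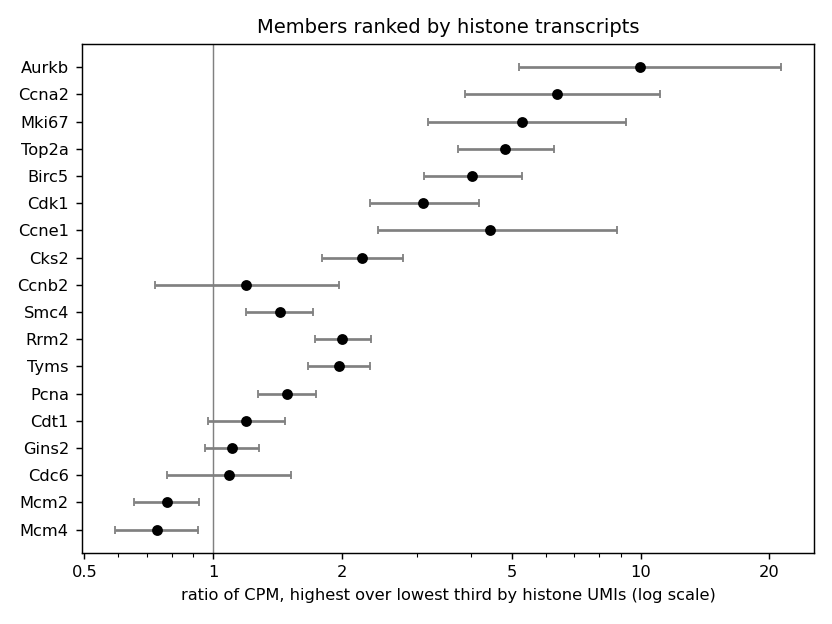
Ratio of CPM in the part of the G1/S progenitors with most histone UMIs over the part with fewest (x axis, log scale), for genes outside the rule, with 95% counting intervals. Ccna2, Mki67 and Top2a lie between 4.81 and 6.37, and Cks2 and Smc4 at 2.23 and 1.43. Gins2 and Cdc6 lie near 1, and Mcm2 and Mcm4 at 0.780 and 0.738. Aurkb had 10 UMIs in the part with fewest histone UMIs, so its place is not read.

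Dorsal and ventral markers were also read in single G1/S progenitors. Tbx5, a dorsal T-box factor, or Aldh1a1, a dorsal retinoic acid enzyme, was found without their ventral counterparts in 106 cells, Vax2, a ventral homeobox factor, or Aldh1a3 alone in 244, both kinds in 28 (4.99%, 3.34 to 7.13) and neither in 183. Tbx5 and Vax2 had a UMI in 16 and 220 cells (2.85% and 39.2%) and in none together, though Tbx5 was caught too rarely to tell whether cells express both. Neurons held them in 5.19% and 45.9% of cells. The part of free RNA in these shares was not tested, and they are not read as a trait of the G1/S progenitors. Against mitotic progenitors 0 of 5 dorsal and 0 of 3 ventral genes tested passed 2-fold, which is near the background of 2.09% higher and 3.5% lower and is not read as a result about them. Both retinoic acid enzymes were higher than in neurogenic cells, Aldh1a1 at 73.8 against 22.3 CPM and Aldh1a3 at 78.4 against 20.4.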

How the data were processed

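Droplet 3′ libraries were processed by the authors with Cell Ranger 2.1.1 on mm10 (GRCm38), per the labels, and deposited as UMI counts per gene and cell, with no normalization. Cells with a mitochondrial fraction of 0.25 or more were removed (1 of 4445), with no upper limit on genes. Group levels are UMIs of a gene added up across cells, per 1000000 UMIs of that group (CPM). Ratios of CPM carry 95% exact conditional binomial intervals, shares exact Clopper-Pearson intervals. Genes with at least 10 CPM in either group were compared and counted at 2-fold. A gene at 0 was set to 3 counts for list medians only. Named are the 13 rule genes, genes of the fixed lists, and the 10 highest and lowest ratios at 50 CPM or more. Neurons held at least 10 UMIs of Tubb3 and Stmn2 and none of the G1/S and mitotic rule genes. The cells, the gene lists and the groups were chosen with earlier results of these data known. Doublets were called with Scrublet in scanpy 1.11.5 (expected rate 0.03) and kept. Alternatives changed depth, scaling (TMM, edgeR 4.0.16), weighting, filters and rule limits. Some genes of the lists are not reported here. Gene symbols listed more than once number 58, and the first entry was used in ratios. The spread between embryos or litters is not measured, as litters were pooled before sorting.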

Additional observations from a re-analysis of the deposited data

Results flagged for a closer look

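The same rule applied to the GFP-positive library, which no comparison used, found 7 of 3728 cells (0.188%, exact interval 0.0755 to 0.387), against 561 of 4444 in the GFP-negative library. The GFP-positive library was shallower, at a median of 3906 UMIs per cell against 9936, which lowers every sum of the rule. The part of depth in the difference was not tested. The 7 cells had a median of 10127 UMIs, and 6 of them held UMIs of the cone genes Gngt2, Thrb or Gnb3, 64 UMIs in all. Among the 561 G1/S progenitors, 10 cells held 10 such UMIs. The barcode of 1 of the 7 cells, and of 3 of the 561, also occurred in the other library, and leakage of the sort or mixing of droplets was not tested.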

How the results depend on the processing

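The number of G1/S progenitors stayed within 1.5 times of 561 under 8 alternative settings of the rule and filters, from 402 with a G1/S sum of at least 6 to 798 with 1 mitotic UMI allowed. The rule on UMIs per 10000 gave 515, of which 483 were shared (86.1% of the 561 and 93.8% of the 515). Counts of genes at 2-fold moved most under the settings that changed the filter. With at least 50 CPM they were 75 higher and 240 lower against other cells, 38 and 144 against mitotic progenitors, and 121 and 214 against neurogenic cells. With no filter and 0.5 added, changed together, they were 3027 and 2209, 2234 and 1557, and 2570 and 2651. Genes with few UMIs then enter, and the part of the added 0.5 in the move was not tested. With at most 3500 genes per cell, genes higher against other cells numbered 155, 148 of them among the 246 of the full set. That limit removes 26.0% of the other cells and 7.49% of the G1/S progenitors, and the cause was not tested. Without the barcodes shared between libraries, an alternative chosen after seeing the data, the counts were 241 and 725, 168 and 281, and 509 and 560 in the same order. All other counts stayed within 1.5 times. Over 31 lists, 3 comparisons and 3 alternatives, 26 of 558 counts of genes moved further, each by at most 3 genes. No paired analysis was possible because each gate has 1 library. Depth limits genes near 10 CPM, and no interval covers variation between animals.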

Other observations

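Lists of other programmes were compared between G1/S and mitotic progenitors. None of 8 temporal identity genes and none of 6 p53 targets passed 2-fold, nor did any of 6 immediate early genes, whose sums were 422 and 425 CPM. With 2.09% of all genes higher and 3.5% lower in this comparison, counts of 0 in such short lists are near the background. Of 4 genes of the ATF4 response 1 passed, Asns, asparagine synthetase, at 27.6 against 55.8 CPM (2.02-fold lower, 1.67 to 2.46), and the list summed to 220.5 against 287.2 CPM. A single gene near the limit is not read as a result about the list.

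Ciliary margin genes summed to 36.2 CPM in the G1/S progenitors, 28.7 in mitotic progenitors and 17.6 in neurogenic cells. Levels were higher in the 218 progenitors with neither sum, at 63.2 CPM. In the 426 with the same G1/S sum and 1 to 5 mitotic UMIs they were at 47.1. Most ciliary margin UMIs in the G1/S progenitors came from Wfdc1, at 26.5 against 4.30 CPM in neurogenic cells (6.16-fold, 4.23 to 9.18). Endothelial genes were at 56.8 CPM, with Kdr the most abundant, against 52.3 in mitotic progenitors and 61.1 in neurons. Mesenchymal genes were at 10.6 CPM with 4 of 6 at 0, and amacrine and horizontal cell genes at 12.6 CPM against 215.7 in neurons. Nasal and temporal factors summed to 25.03 CPM, against 37.1 in mitotic progenitors.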
